A study of Mus musculus with 12 samples.

Results

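The Kcn genes encode the pore-forming and accessory subunits of potassium channels. The family was taken as every deposited gene symbol made of Kcn, a lower-case subfamily letter or letters and a final number, which gave 92 of 23329 symbols in 20 subfamilies. The symbols Kcne1l, Kcnq1ot1 and Kcnrg start with Kcn, lack that form and were left out. Levels were read in the hippocampus of adult C57BL/6 mice with a knockout of Nono (KO), which encodes a nuclear RNA- and DNA-binding protein, and in wild-type (WT) C57BL/6 mice. Polyadenylated RNA was sequenced in 12 libraries, 3 each for KO CT10, WT CT10, KO CT22 and WT CT22. The labels do not spell out CT, name no other treatment, allele or age in numbers, and do not say which cells lost Nono. They leave it unsaid whether each library stands for an animal of its own, and the p-values therefore measure spread between libraries that may be only technical.

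Potassium channels set the resting potential of neurons and glia, end the action potential and shape the pause that follows a burst. Voltage-gated alpha subunits (Kcna to Kcnd) open on depolarization, silent modifier subunits (Kcnf, Kcng, Kcns, Kcnv) join them without forming channels alone, and beta, KChIP and Kcne subunits adjust their number and gating. Kcnq channels carry the M-current that restrains repetitive firing, Kcnn and Kcnma channels open on calcium, inward rectifiers (Kcnj) include G-protein-gated and glial channels, and tandem-pore channels (Kcnk) carry leak current. In the hippocampus these subunits are spread unevenly over pyramidal cells, granule cells, fast-spiking interneurons and astrocytes.

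Library totals lay between 4435606 and 10911046 counts, of which Kcn genes held 22183 to 51253 counts, or 0.45% to 0.507%. Nono held 0 to 4 counts in each KO library, against 1147 to 1814 counts in each WT library, so no library went against its genotype label. The CT labels were followed less well. The clock output gene Dbp stood at 93.6, 106 and 33.5 counts per 1000000 (CPM, on library sizes scaled by TMM) in KO CT10 libraries, at 80.6, 70.4 and 94.95 CPM in WT CT10 libraries, at 90.8, 32.2 and 32.8 CPM in KO CT22 libraries and at 43.2, 50.4 and 59.5 CPM in WT CT22 libraries. The library labelled KO CT10 replicate 3 thus lay with the CT22 libraries, and the library labelled KO CT22 replicate 1 with the CT10 libraries, and Nr1d1 and Nr1d2 placed both the same way. The counts of Kcn calls, and the changes of many of the genes described for a CT label, are therefore also given without both libraries. Transcript shares are given by library with both kept. Markers of dentate granule cells, CA1 cells and CA2 and CA3 cells were all read, with none of those in the files at 0 throughout. Choroid plexus markers (16 of 16 read) summed to 376.6 to 4909 CPM in KO CT10, 342.4 to 2104 CPM in WT CT10, 248.2 to 5353 CPM in KO CT22, and 409.7 to 2191 CPM in WT CT22. The highest of each group, KO CT10 replicate 1 and replicate 3 of the other 3 groups, are called the choroid-rich libraries.

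The first question was which Kcn genes the hippocampus holds. Levels between genes were compared as transcripts per 1000000 (TPM), which correct for length. Accessory subunits of voltage-gated channels made up the largest share of Kcn transcripts, 34.2%, although they number 11 of the 92 genes. Their summed level was 1148 ± 95.7 TPM in KO and 1175 ± 58.6 TPM in WT (SD, n = 6 each). The voltage-gated alpha subunits held 18.4%, with 654 ± 70.6 TPM in KO and 594 ± 47.7 TPM in WT. Inward rectifiers held 15.4%, with 537 ± 49.1 TPM in KO and 506 ± 28.1 TPM in WT. Kcnq and Kcnh channels together held 12.5%, calcium- and sodium-activated channels 8.60%, tandem-pore channels 5.93% and silent modifiers 5.04%. The KO and WT ranges of the summed TPM overlapped for all 7 roles.

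Kcnab2, a beta subunit of the Shaker-type Kcna channels, was the most abundant member per length, at 454 to 634 TPM in KO (median 597) and 556 to 680 TPM in WT (median 629). Kcnip2, a calcium-binding KChIP partner of the A-type Kcnd channels, stood at 187 to 327 TPM in KO and 177 to 261 TPM in WT. Kcnab2 lay above Kcnip2 in every library. Several lower members overlapped each other in range over the 12 libraries. Among them were Kcnmb4, the neuronal beta subunit of the BK channel, Kcnj10, the main inward rectifier of astrocytes, Kcnab1, the strong inward rectifier Kcnj4, Kcnip3, a KChIP also known as the repressor DREAM, and the leak channel Kcnk1. Their mean TPM over 12 libraries ran from 123 for Kcnmb4 to 102 for Kcnk1. The most abundant silent modifier was Kcnf1, at 45.2 TPM over the 12 libraries, and the most abundant pore among the G-protein-gated rectifiers was Kcnj3, at 90.7 TPM.

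**Figure D1:**
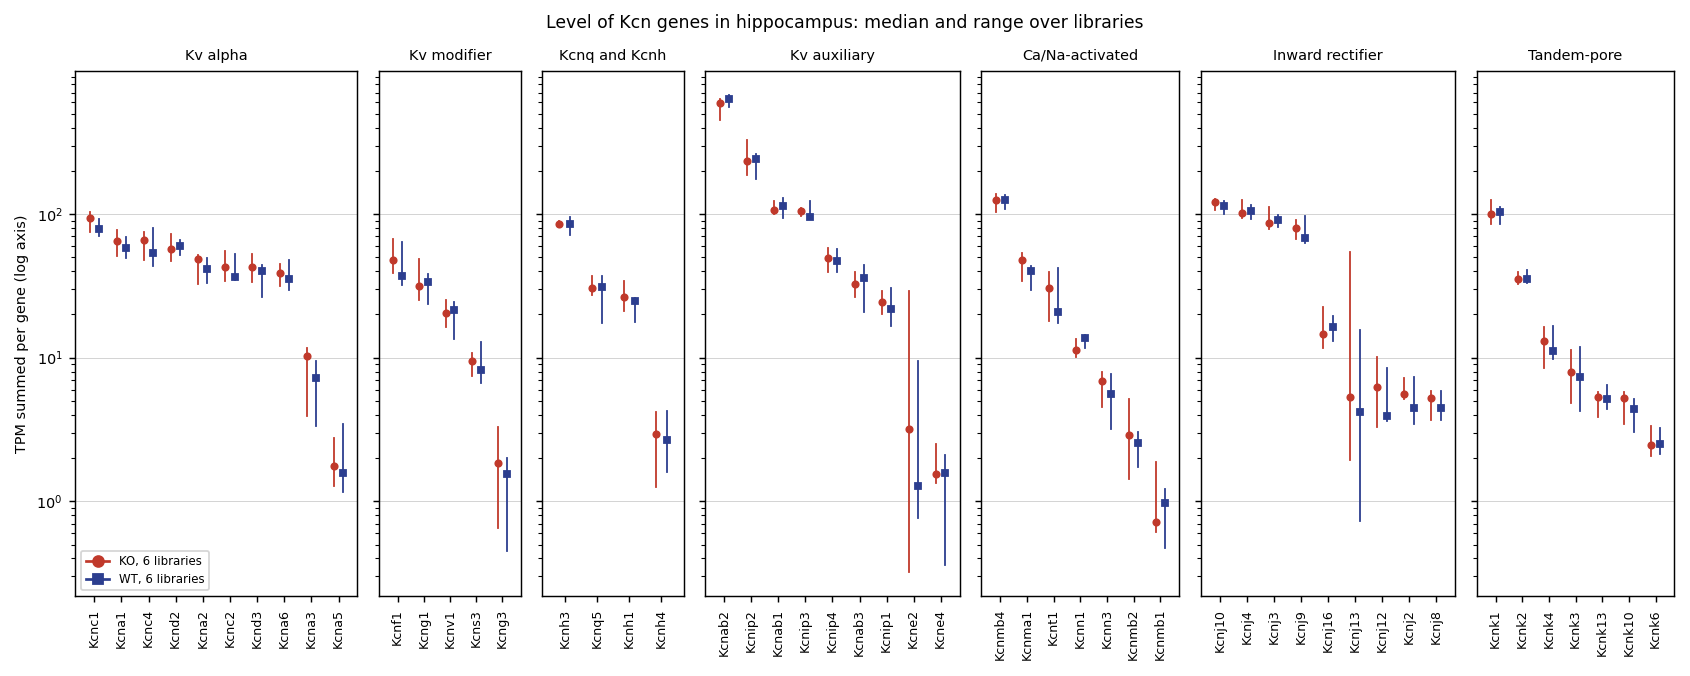
Level of the 51 tested Kcn genes named in the text, in TPM (log axis), grouped by role, as median (point) and range (line) over 6 KO and 6 WT libraries. Kcnab2 stands highest, at a median of 597 TPM in KO and 629 TPM in WT, and Kcnj13 and Kcne2 have the longest ranges shown.

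Of the 92 genes, 74 passed the filter on low counts, so counts of tested members leave out 18 genes. Kcnj1, an inward rectifier known from kidney, Kcnk16, a leak channel known from pancreas, and Kcnmb3, a BK beta subunit, were listed at 0 counts in all 12 libraries, which allows up to 0.0297 CPM over the 12 libraries. The other 15 untested genes reached at most 1.40 CPM in any library, the value of Kcnk5. Kcnn4, a calcium-activated channel of blood and microglial cells, was among them, with 28 counts in all and a mean of 0.282 CPM. Floors and counting intervals cover counting error only.

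The members differed in how steady they were across libraries. Kcnj10, which clears potassium through astrocytes, was among the steadiest, at 267, 242 and 232 CPM in KO CT10, at 240, 251 and 217 CPM in WT CT10, at 262, 256 and 248 CPM in KO CT22 and at 259, 270 and 250 CPM in WT CT22. Its highest library stood 1.25-fold above its lowest. Kcnip3 (1.27-fold), the leak channel Kcnk2 (1.27-fold) and Kcnh3, an ELK-type channel of forebrain neurons (1.28-fold), were nearly as steady. Astrocyte markers (10 of 10 read) summed to 6458 to 7445 CPM in KO and 6563 to 7824 CPM in WT.

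Other members followed single libraries. Kcnt1, a sodium-activated channel, stood at 54.9, 42.1 and 65.7 CPM in KO CT10, at 36.4, 46.3 and 44.0 CPM in WT CT10, at 35.8, 64.5 and 75.3 CPM in KO CT22 and at 84.2, 40.4 and 48.2 CPM in WT CT22. Kcnf1 stood at 72.6, 84.3 and 101 CPM in KO CT10, at 62.2, 71.7 and 85.4 CPM in WT CT10, at 71.9, 97.9 and 123 CPM in KO CT22 and at 118, 71.8 and 68.6 CPM in WT CT22. Both were highest in KO CT22 replicate 3 and WT CT22 replicate 1, and so was Kcnc2, a channel of fast-spiking interneurons. Interneuron markers (9 of 9 read) were also highest in these 2 libraries, at 1180 CPM in the KO library and 1184 CPM in the WT library, against 806 to 1091 CPM in the other 10. Dentate granule cell markers (8 of 8 read) were lowest in the same libraries, at 343 CPM in the KO library and 312 CPM in the WT library. The KO library was also the highest for markers of striatum (288.8 CPM), thalamus and habenula (227.8 CPM) and meninges and fibroblasts (537.7 CPM). The WT library was the highest for CA1 markers (1092 CPM). Another library, KO CT22 replicate 1, was the highest for dentate granule cell markers (848.3 CPM) and the lowest for oligodendrocyte markers (3475 CPM). The part of these cells and regions in any Kcn level was not tested, and in bulk tissue fewer cells of a type and less RNA per cell cannot be told apart.

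Kcnj13 and Kcne2 varied most, and both were highest in the choroid-rich libraries. Kcnj13, an inward rectifier known from choroid plexus and retinal pigment epithelium, lies at chromosome 1, 87386284 to 87394729, on the minus strand (build mm10). Kcne2, a small single-pass accessory subunit known from choroid plexus and stomach, lies at chromosome 16, 92292389 to 92298133, on the plus strand. The 250 bases before each gene's deposited start are shown because these members moved together across libraries. They were taken from the RefSeq promoter table (build GRCm38.p6) at chr1:87394730-87394979, minus strand, and chr16:92292139-92292388, plus strand. Capitals mark matches to TGACGT, part of the cAMP response element, and to TATAAA, the TATA box, on either strand.
Kcnj13: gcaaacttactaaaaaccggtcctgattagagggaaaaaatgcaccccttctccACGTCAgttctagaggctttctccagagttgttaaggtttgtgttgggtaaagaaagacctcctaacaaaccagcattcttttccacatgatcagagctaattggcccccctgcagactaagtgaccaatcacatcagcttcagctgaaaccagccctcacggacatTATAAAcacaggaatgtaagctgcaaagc
Kcne2: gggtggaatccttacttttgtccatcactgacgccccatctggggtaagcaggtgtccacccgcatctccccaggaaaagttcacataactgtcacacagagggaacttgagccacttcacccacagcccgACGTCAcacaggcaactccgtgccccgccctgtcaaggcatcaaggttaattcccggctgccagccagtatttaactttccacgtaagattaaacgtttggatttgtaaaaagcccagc
TGACGT was found on the reverse strand of both, with its first base 196 bases before the start in Kcnj13 and 119 bases before it in Kcne2. TATAAA was found 29 bases before the start of Kcnj13. Of the 92 windows that matched 67 Kcn genes, 4.35% held TGACGT and 3.26% held TATAAA on either strand, against 6.47% and 12.4% of all 32851 windows. The E-box CACGTG was in 6.52% of Kcn windows and 6.02% of all, and TAATCC, the OTX motif, in 1.09% of Kcn windows and 6.25% of all. The searches count letters only and show no binding.

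Kcnj13 stood at 21.97, 1.06 and 2.80 CPM in KO CT10, at 0.383, 1.25 and 8.22 CPM in WT CT10, at 1.90, 2.69 and 26.9 CPM in KO CT22 and at 2.999, 0.877 and 6.503 CPM in WT CT22. The highest library stood 70.3-fold above the lowest. Kcne2 stood at 10.9, 0.605 and 1.63 CPM in KO CT10, at 0.511, 0.520 and 6.31 CPM in WT CT10, at 0.200, 2.46 and 18.5 CPM in KO CT22 and at 0.700, 0.987 and 6.41 CPM in WT CT22, a span of 92.2-fold. In each of the 4 groups, 1 library was the highest for both genes, and it was also the group's highest for Ttr, the transthyretin gene that marks choroid plexus epithelium. The high libraries held 3331 CPM of Ttr in KO CT10, 1503 CPM in WT CT10, 3452 CPM in KO CT22 and 1459 CPM in WT CT22, while the other 8 libraries held 54.5 to 443 CPM. KO and WT overlapped in both genes at both CT labels. The part of choroid plexus tissue in these levels was not tested.

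Over both CT labels, the log2 change of Kcnj13 in KO over WT was 1.56 (SE 1.05, 95% interval -0.83 to 3.95), with an adjusted p of 0.832 in edgeR's quasi-likelihood test. For Kcne2 it was 1.18 (SE 1.14, 95% interval -1.43 to 3.79, adjusted p = 0.882 in edgeR). Without KO CT22 replicate 3 these log2 changes were 0.41 for Kcnj13 and -0.25 for Kcne2. Without KO CT10 replicate 1 they were 0.49 and 0.20. Without the 4 choroid-rich libraries they were 0.69 for Kcnj13 and 0.70 for Kcne2. The exons of Kcnj13 overlap exons of Gigyf2 on the opposite strand. No source used here gives the strand setting of the counting, so it is not known whether the counts keep reads of such pairs apart. Such overlaps on the opposite strand exist for 26 of the 92 members, Kcnn1, Kcnma1, Kcnh3, Kcnab3 and Kcnq5 among them. Kcnab2 and Kcnk4 overlap another gene on their own strand.

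**Figure D2:**
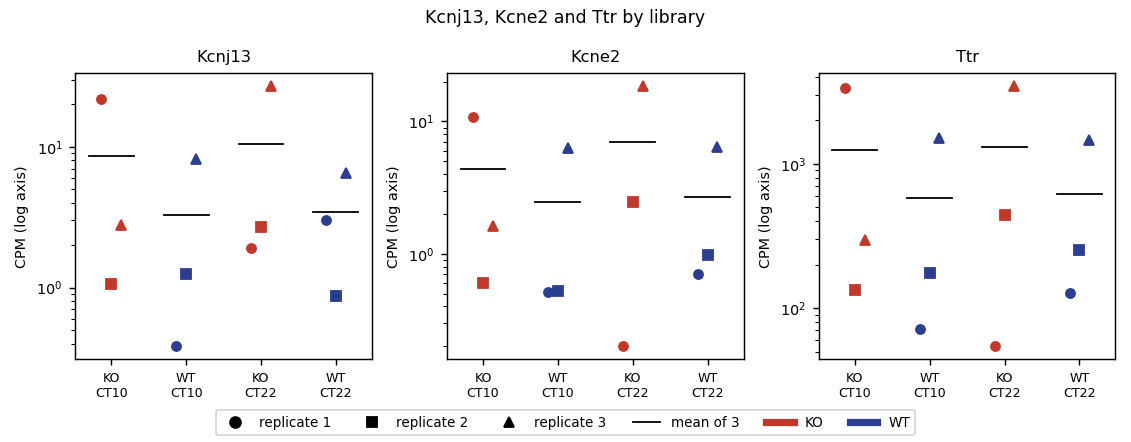
Kcnj13, Kcne2 and Ttr in CPM (log axes) in each library of KO CT10, WT CT10, KO CT22 and WT CT22, with marker shape for the replicate number and a line for the mean of 3. In each group the library with the most Ttr (3331, 1503, 3452 and 1459 CPM) is also the highest for Kcnj13 and Kcne2.

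The main comparison asked whether Kcn genes differed in KO from WT when both CT labels were used. No Kcn gene passed the test: 0 of the 74 tested members passed an adjusted p of 0.05 in edgeR's quasi-likelihood test, and 0 passed in DESeq2, where 0.0212% of all 14131 genes passed in edgeR and 0.156% in DESeq2. At an unadjusted p under 0.05 there were 3 members, or 4.05%, against 6.35% of all genes. KO levels were higher for 47 members and lower for 27, and the median log2 change was 0.06, against 0.01 over all genes tested, of which 51.8% were higher. Without the 2 KO libraries that lay with the other CT label there were 0 calls, 4 members at an unadjusted p under 0.05 and 45 members higher in KO, and the median log2 change was 0.0202. Without the 4 choroid-rich libraries there were 0 calls, 2 members at an unadjusted p under 0.05 and 42 of 75 tested members higher, and the median was 0.0158. Leaving out KO CT10 replicate 3, 1 of those 2 KO libraries, gave a median of 0.0219. With each single library left out in turn, the median ran from there to 0.0863, without KO CT10 replicate 2. The lean of the family toward KO thus stayed above 0, and its size moved with the libraries used, from 0.0158 to 0.0863. Between single libraries of a group, the median deviation of the members from their mean level had an SD of 0.0718 in log2. The lean is a difference between means of several libraries, so this SD is not its error, and the lean was not tested. In the authors' deposited table of KO over WT, 79 of the 92 members were marked present, 0 had an adjusted p under 0.05, and the lowest was 0.805, for Kcnma1. A p that misses the threshold does not show that KO and WT were alike, so the intervals matter more. The 95% interval of the log2 change lay within a 1.5-fold change in either direction for 60 of the 74 members and within a 2-fold change for 70. Of all 14131 genes, 11642 intervals lay within 1.5-fold and 13407 within 2-fold. The 4 members whose interval reached past 2-fold were Kcnj13, Kcne2, the silent modifier Kcng3 and the accessory subunit Kcne4.

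**Figure D3:**
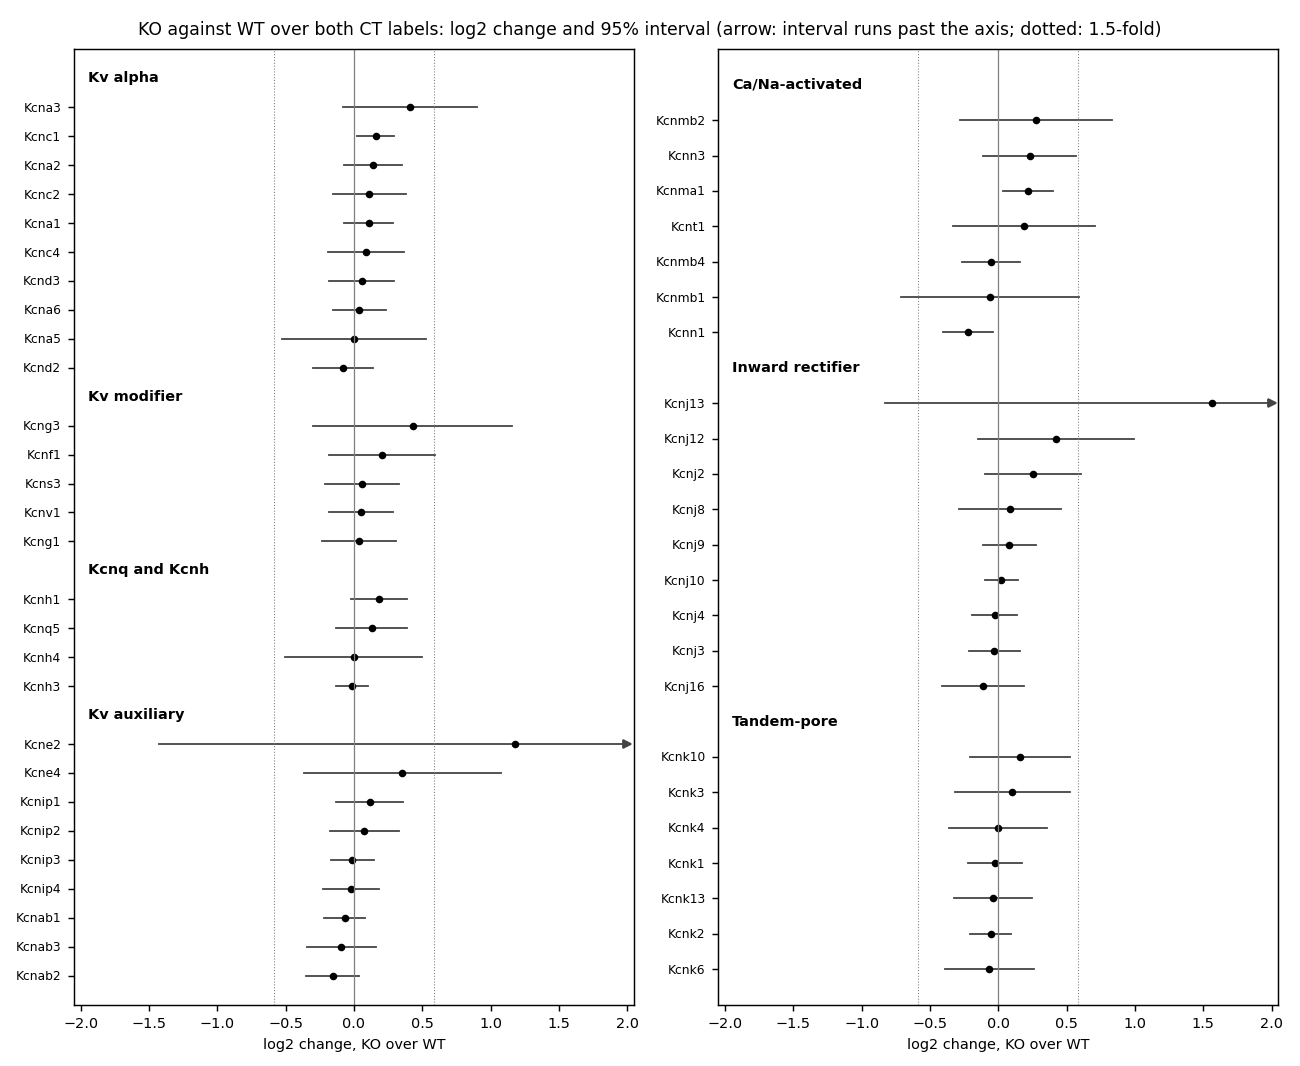
Log2 change of the 51 tested Kcn genes named in the text, KO over WT over both CT labels, with its 95% interval from edgeR, grouped by role; dotted lines mark 1.5-fold. For 40 of them the interval stays between the dotted lines, and the intervals of Kcnj13 and Kcne2 run past the axis.

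Kcnn1, Kcnma1 and Kcnc1 were the members with an unadjusted p under 0.05. Kcnn1, a small-conductance channel that opens when calmodulin binds calcium and slows firing after a spike (chromosome 8, 70842049 to 70857008, minus strand), averaged 18.7 ± 2.72 CPM in KO and 21.8 ± 1.77 CPM in WT (SD, n = 6 each). Its log2 change was -0.22 (SE 0.09, 95% interval -0.41 to -0.04, adjusted p = 0.703 in edgeR). Kcnma1, the pore of the large-conductance BK channel opened by calcium and voltage together (chromosome 14, 23298694 to 24004205, minus strand), averaged 95.1 ± 11.8 CPM in KO and 82.1 ± 8.68 CPM in WT. Its log2 change was 0.22 (SE 0.09, 95% interval 0.04 to 0.40, adjusted p = 0.708 in edgeR), and 0.08 without the 4 choroid-rich libraries. Kcnc1, a fast delayed rectifier that lets neurons fire at high rates (chromosome 7, 46396468 to 46438704, plus strand), averaged 214 ± 22.6 CPM in KO and 192 ± 12.5 CPM in WT, a log2 change of 0.16 (SE 0.06, 95% interval 0.02 to 0.29, adjusted p = 0.713 in edgeR). KO and WT libraries overlapped for all 3 genes. Of the 74 members, 0 had KO libraries clear of WT libraries in the same direction at both CT labels, against 0.807% of all genes.

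Among the voltage-gated alpha subunits, 13 of 15 tested members were higher in KO, with a median log2 change of 0.11, and 0 of 15 passed the test. The axonal channel genes Kcna1 and Kcna2 had log2 changes of 0.11 and 0.14, and Kcnd2, an A-type channel of dendrites, had one of -0.08. Without the 4 choroid-rich libraries, 10 of 15 were higher at a median of 0.09, and the log2 changes were 0.06 for Kcna1, 0.02 for Kcna2 and -0.10 for Kcnd2. With the 2 KO libraries that lay with the other CT label left out, 14 of 15 were higher at a median of 0.04, with 0.03 for Kcna1, 0.09 for Kcna2 and -0.21 for Kcnd2. Of the silent modifiers, 8 of 9 were higher in KO at a median log2 change of 0.05, and 0 of 9 passed. That count was 5 of 9 without the choroid-rich libraries and 6 of 9 without those 2 KO libraries. Accessory subunits were split, 4 higher and 5 lower, with Kcnab2 at 813 ± 96.3 CPM in KO and 905 ± 102 CPM in WT (SD, n = 6 each; log2 change -0.16, 95% interval -0.35 to 0.04, adjusted p = 0.813 in edgeR). Without the 4 choroid-rich libraries, the log2 change of Kcnab2 was -0.05.

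Of the Kcnq and Kcnh channels 6 of 10 were higher in KO, of the calcium- and sodium-activated channels 4 of 10, of the inward rectifiers 8 of 12 and of the tandem-pore channels 4 of 9, with 0 past the test in each role. Kcnj10 had a log2 change of 0.02 (95% interval -0.10 to 0.14). The strong inward rectifiers Kcnj12 and Kcnj2 had larger and less certain log2 changes of 0.42 (95% interval -0.15 to 0.99) and 0.26 (95% interval -0.10 to 0.61). For Kcnj12 the log2 change was 0.18 without KO CT22 replicate 3.

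Members tied to glia and vessels gave no call either. Kcnj16, the partner of Kcnj10 in astrocytes, averaged a log2 change of -0.11 (95% interval -0.41 to 0.19). Kcnj8, the pore of the vascular ATP-sensitive channel, stood at 0.08 (95% interval -0.29 to 0.46), and Kcnk13, a leak channel of microglia, at -0.04 (95% interval -0.33 to 0.24). Marker sums of pericytes and smooth muscle (8 of 8 read) ran from 157 to 297 CPM in KO and from 131 to 261 CPM in WT, and those of microglia (8 of 8 read) from 404 to 472 CPM in KO and from 443 to 513 CPM in WT. The microglia sums overlapped at CT10. At CT22 they did not, at 403.9 to 431.9 CPM in KO and 442.8 to 513 CPM in WT. The part of microglia in any Kcn level was not tested.

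Genes whose products work with these channels were read from a list of 38, of which 36 were tested. These too gave 0 calls over both CT labels, beside 0.0212% of all genes, with 21 higher and 15 lower in KO and a median log2 change of 0.02. The split was 18 higher and 18 lower without the 4 choroid-rich libraries, and 15 higher and 21 lower without the 2 KO libraries that lay with the other CT label. Only Gabbr2 and Calm2, 2 of the 36, had an unadjusted p under 0.05, against 6.35% of all genes. Gabbr2, a subunit of the GABA-B receptor that opens G-protein-gated Kcnj channels, had a log2 change of 0.20 over both CT labels (95% interval 0.04 to 0.36, adjusted p = 0.703 in edgeR), which averages 0.45 at CT22 and -0.05 at CT10, and one of 0.12 without the 2 KO libraries that lay with the other CT label. It stood at 311.3, 270.7 and 264.9 CPM in KO CT22, against 215, 224 and 179.9 CPM in WT CT22, without overlap. Its log2 change there was 0.45 (95% interval 0.23 to 0.68, adjusted p = 0.353 in edgeR). At CT10 the libraries overlapped, at 266.3, 226.2 and 283.1 CPM in KO and 264, 258.9 and 282.9 CPM in WT, with a log2 change of -0.05. The difference of 0.51 between the 2 KO effects did not pass the test (95% interval 0.19 to 0.82, adjusted p = 0.737 in edgeR). Calm2, which encodes the calmodulin that gates Kcnn channels, had a log2 change of -0.16 over both CT labels (95% interval -0.31 to -0.01, adjusted p = 0.734 in edgeR).

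At CT22, 0 of the 36 passed and 4 had an unadjusted p under 0.05, against 10.9% of all genes. Besides Gabbr2 these were Ank3, which encodes the ankyrin that anchors Kcnq channels at the axon initial segment, at a log2 change of 0.33, Kctd12, an auxiliary subunit of the GABA-B receptor, at 0.31, and Calm2 at -0.24. The log2 change at CT22 was 0.18 for Kctd12 without the 2 KO libraries that lay with the other CT label, and -0.14 for Calm2 without the 4 choroid-rich libraries. Gabbr2 and Ank3 were highest in KO CT22 replicate 1, 1 of those 2 KO libraries, at 311.3 and 255.9 CPM. Their changes at CT22 are given only with it kept. At CT10, 0 of the 36 had an unadjusted p under 0.05, against 3.09% of all genes. In the interaction 2 had one, Gabbr2 and Kctd12, against 6.09% of all genes, and 0 passed.

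At CT10 no Kcn gene passed the test. 0 of 74 members passed in edgeR and 0 in DESeq2, beside 0.00708% of all genes in edgeR and 0.0212% in DESeq2. At this label 0 members had an unadjusted p under 0.05, against 3.09% of all genes. KO was higher for 40 members, or 54.1%, against 51.5% of all genes, and the median log2 change was 0.02. KO and WT libraries did not overlap for 5 members, or 6.76%, against 10.3% of all genes. Kcnip1, a KChIP of interneurons, was higher in KO at 20.2, 21.5 and 23.3 CPM, against 18.9, 20.1 and 14.97 CPM in WT (log2 change 0.26, 95% interval -0.09 to 0.61). Kcnj12, the BK beta subunit Kcnmb2 and the silent modifier Kcns3 were also higher in KO without overlap, and the leak channel Kcnk6 was lower. Interneuron marker sums were likewise higher in KO CT10 without overlap, at 998.8 to 1091 CPM, against 850.9 to 919.5 CPM in WT CT10. The part of these cells in the level of Kcnip1 was not tested. Without the 2 KO libraries that lay with the other CT label there were again 0 calls and 0 members at an unadjusted p under 0.05, while 31 members were higher and 43 lower, and Kcnip1 had a log2 change of 0.20.

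At CT22 the spread of log2 changes was wider and still gave no call. 0 of 74 members passed in edgeR and 0 in DESeq2, beside 0.0142% of all genes in edgeR and 0.219% in DESeq2. At an unadjusted p under 0.05 there were 7 members, or 9.46%, against 10.9% of all genes. The lowest adjusted p of a member was 0.377 in edgeR, for Kcnn1, and 0.162 among those DESeq2 gave, for Kcnc1. KO was higher for 47 members, or 63.5%, against 50.6% of all genes. The median log2 change was 0.14, and 33 of 74 intervals lay within 1.5-fold, against 9306 of 14131 over all genes. The median was 0.04 without the 4 choroid-rich libraries and 0.09 without the 2 KO libraries that lay with the other CT label. Without those 2 libraries there were 0 calls and 11 members at an unadjusted p under 0.05.

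Kcnn1 stood at 17.02, 15.7 and 17.4 CPM in KO CT22, against 21.8, 23.8 and 21.9 CPM in WT CT22, and all 3 KO libraries lay below all 3 WT libraries. Its log2 change was -0.42 (SE 0.12, 95% interval -0.68 to -0.16, adjusted p = 0.377 in edgeR). At CT10 the libraries overlapped, at 18.0, 22.6 and 21.5 CPM in KO and 22.7, 18.5 and 22.01 CPM in WT, with a log2 change of -0.03. Without the 2 KO libraries that lay with the other CT label, the log2 change at CT22 was -0.44.

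Kcnc1 stood at 222, 236 and 236 CPM in KO CT22, against 206, 185 and 172 CPM in WT CT22, again without overlap. Its log2 change was 0.30 (SE 0.09, 95% interval 0.11 to 0.49, adjusted p = 0.386 in edgeR). At CT10 it stood at 193, 181 and 218 CPM in KO and 187, 201 and 198 CPM in WT, overlapping, with a log2 change of 0.02. The log2 change at CT22 was 0.32 without those 2 KO libraries and 0.23 without the 4 choroid-rich libraries. Interneuron marker sums cover several interneuron classes and not only the fast-spiking cells known for Kcnc1. They overlapped at CT22, at 806 to 1180 CPM in KO and 949 to 1184 CPM in WT.

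Kcnma1 stood at 106, 91.6 and 104 CPM in KO CT22, against 82.5, 84.7 and 66.0 CPM in WT CT22, without overlap (log2 change 0.38, 95% interval 0.12 to 0.63, adjusted p = 0.397 in edgeR). Kcna3, a Shaker-type channel of neurons and microglia, stood at 8.11, 8.06 and 8.57 CPM in KO CT22, against 7.10, 3.84 and 2.75 CPM in WT CT22 (log2 change 0.86, 95% interval 0.17 to 1.54, adjusted p = 0.407 in edgeR). Kcnh1, an ether-à-go-go channel, stood at 94.6, 71.0 and 69.2 CPM in KO CT22, against 55.6, 72.2 and 53.4 CPM in WT CT22, with 1 WT library inside the KO range (log2 change 0.38, adjusted p = 0.401 in edgeR). Its highest library, KO CT22 replicate 1, was also the highest for dentate granule cell markers, and the part of these cells was not tested. The M-current subunit Kcnq5 (log2 change 0.43, adjusted p = 0.422 in edgeR) and Kcna1 (log2 change 0.28, adjusted p = 0.423 in edgeR) were the other members at an unadjusted p under 0.05. Without the same 2 KO libraries the log2 changes at CT22 were 0.33 for Kcnma1, 0.87 for Kcna3, 0.21 for Kcnh1, 0.46 for Kcnq5 and 0.17 for Kcna1. Without the 4 choroid-rich libraries those of Kcnma1 and Kcna3 were 0.25 and 0.56. In all, 9 members, or 12.2%, did not overlap at CT22, against 13.7% of all genes. Kcna5 and Kcnk10 were among those that joined Kcna3, Kcnc1 and Kcnma1 above WT, and the beta subunit Kcnab3 and Kcnh3 joined Kcnn1 below it.

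**Figure D4:**
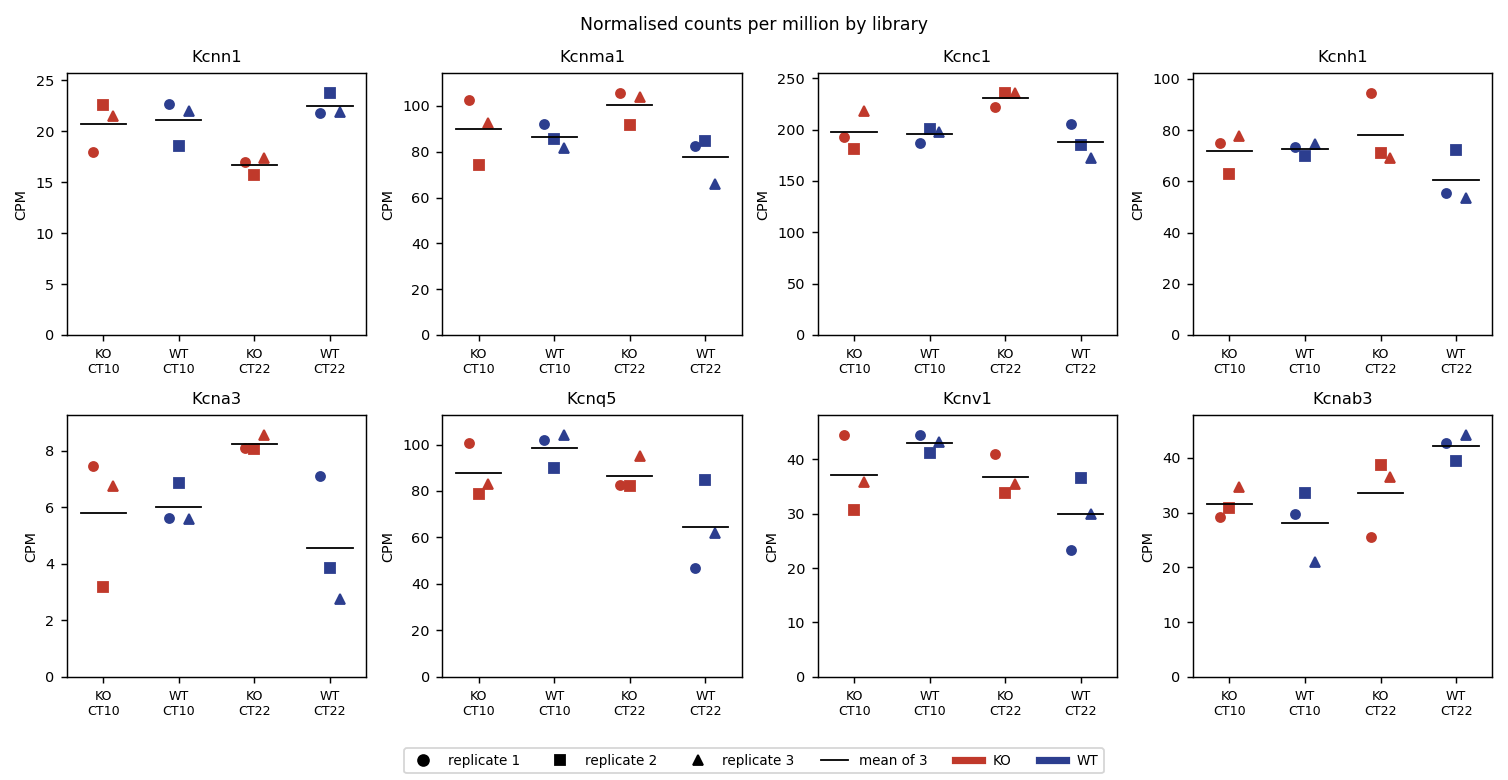
CPM by library for 8 Kcn genes in KO CT10, WT CT10, KO CT22 and WT CT22, with marker shape for the replicate number and a line for the mean of 3. At CT22 the 3 KO libraries of Kcnn1 (15.7 to 17.4 CPM) lie below and those of Kcnc1 (222 to 236 CPM) above all WT libraries, while both overlap at CT10.

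The difference between the KO effect at CT22 and that at CT10 was tested as an interaction. 0 of 74 members passed in edgeR and 0 in DESeq2, beside 0% of all genes in either tool. 6 members had an unadjusted p under 0.05, or 8.11%, against 6.09% of all genes, and their lowest adjusted p was 0.737. They were Kcnq5, at a log2 difference of 0.60, Kcnv1 at 0.52, Kcna5 at 1.15, Kcnn1 at -0.40, Kcnc1 at 0.28 and Kcns3 at -0.56. Without the 2 KO libraries that lay with the other CT label, 4 members had an unadjusted p under 0.05 and 0 passed. The log2 difference was then 0.59 for Kcnq5, 0.40 for Kcnv1, 1.304 for Kcna5, -0.38 for Kcnn1, 0.39 for Kcnc1 and -0.37 for Kcns3.

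Within KO mice, 0 of 74 members passed between CT22 and CT10 in edgeR and 0 in DESeq2, beside 0% of all genes. 3 members had an unadjusted p under 0.05, or 4.05%, against 3.16% of all genes. Kcng1, a silent modifier of Kcnb channels, stood at 29.8, 34.7 and 42.7 CPM in KO CT22, against 22.3, 26.2 and 26.2 CPM in KO CT10, without overlap (log2 change 0.52, 95% interval 0.14 to 0.91, adjusted p = 0.976 in edgeR). Kcnc1 had a log2 change of 0.23 and Kcnn1 one of -0.30. These 3 and Kcna3 were the 4 members without overlap, or 5.41%, against 7.97% of all genes. Without the 2 KO libraries that lay with the other CT label, which leaves 2 libraries in each KO group, 9 members had an unadjusted p under 0.05, and 0 passed at a lowest adjusted p of 0.623 in edgeR. The log2 change was then 0.69 for Kcng1, 0.34 for Kcnc1 and -0.28 for Kcnn1, and without the 4 choroid-rich libraries it was 0.29 for Kcng1.

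Within WT mice, 0 of 74 members passed between CT22 and CT10 in edgeR and 0 in DESeq2, beside 0% of all genes in edgeR and 0.0283% in DESeq2. 8 members had an unadjusted p under 0.05, or 10.8%, against 6.76% of all genes, and 12 did not overlap, or 16.2%, against 16.2% of all genes. Kcnq5 was lower at 46.8, 84.8 and 61.9 CPM in WT CT22, against 102, 89.9 and 104 CPM in WT CT10 (log2 change -0.61, 95% interval -0.98 to -0.25, adjusted p = 0.722 in edgeR, and 0.264 in DESeq2). Kcnv1, a silent modifier of Kcnb channels, was lower too, at 23.4, 36.5 and 29.9 CPM in WT CT22, against 44.6, 41.1 and 43.1 CPM in WT CT10 (log2 change -0.52, adjusted p = 0.722 in edgeR). In both genes WT CT22 replicate 1 was the lowest library, and it also held the lowest sum of dentate granule cell markers, 312 CPM. That library was also lowest for CA2 and CA3 markers, at 305.8 CPM, and highest for CA1 markers, at 1092 CPM. The part of these cells in either gene was not tested.

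Kcnab3 was higher at 42.7, 39.4 and 44.2 CPM in WT CT22, against 29.8, 33.6 and 21.0 CPM in WT CT10 (log2 change 0.57, 95% interval 0.22 to 0.93, adjusted p = 0.722 in edgeR). The acid-sensitive leak channel Kcnk3 was higher at 17.5, 11.95 and 14.3 CPM in WT CT22, against 6.51, 10.4 and 7.92 CPM in WT CT10 (log2 change 0.81, 95% interval 0.21 to 1.40, adjusted p = 0.722 in edgeR). Kcnj9, Kcns3, Kcna6 and Kcnh3 were the other members at an unadjusted p under 0.05, all higher in WT CT22, with log2 changes of 0.34, 0.42, 0.30 and 0.18. In KO mice the same contrast gave log2 changes of 0.07 for Kcnab3, 0.08 for Kcnk3 and -0.02 for Kcnq5, and without the 2 KO libraries that lay with the other CT label 0.33, 0.56 and -0.02. In WT mice, where leaving out these KO libraries alters the shared spread, 11 members then had an unadjusted p under 0.05 and 0 passed, at a lowest adjusted p of 0.35 in edgeR. Without the 4 choroid-rich libraries, Kcnab3 had a log2 change of 0.37 in WT. For Kcnk3, KO CT22 replicate 1, one of the 2 libraries on the other side by Dbp, was the lowest of its group at 7.11 CPM, and KO CT10 replicate 3 the highest of its group at 14.0 CPM.

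**Figure D5:**
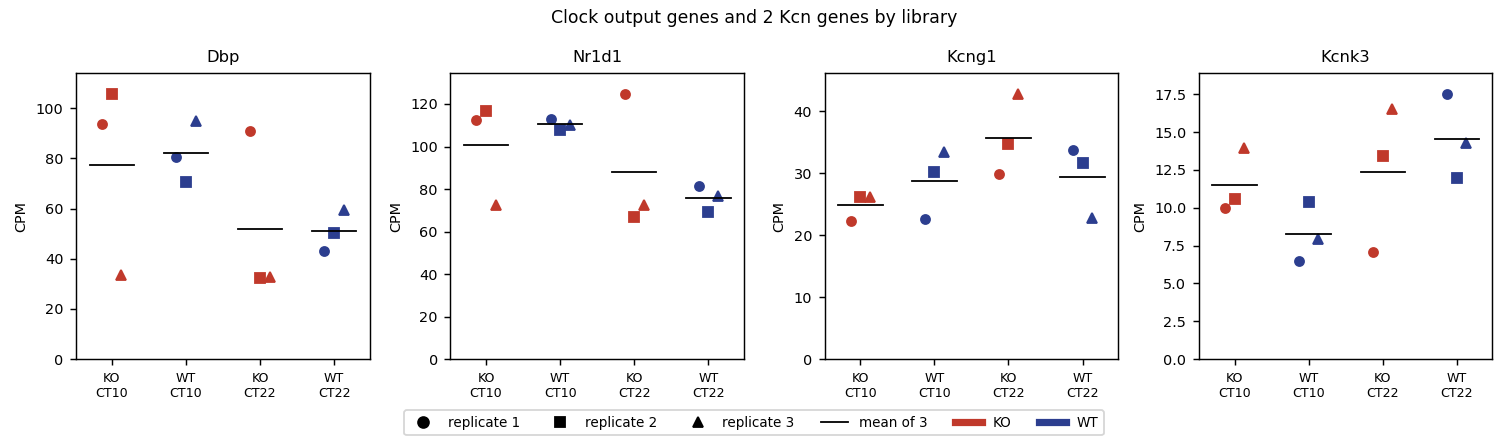
CPM by library for the clock output genes Dbp and Nr1d1 and for Kcng1 and Kcnk3, with marker shape for the replicate number and a line for the mean of 3. KO CT10 replicate 3 and KO CT22 replicate 1 stand with the other CT label for Dbp (33.5 and 90.8 CPM), and for Kcnk3 they are the highest and the lowest library of their groups.

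Transcripts were tested separately, since a gene sum can hide a shift between them. The 92 genes had 162 transcripts in the deposited files, 70 genes with 1 transcript and 22 with several, up to 22 for Kcnma1. Of 104 member transcripts tested, 0 passed for KO over WT with both CT labels together in edgeR, beside 0.0222% of all 18021 transcripts, and 4 had an unadjusted p under 0.05, against 5.64% of all. The 5037-base transcript of Kcnma1 held 55.5 ± 7.42% of the gene's counts in KO and 47.7 ± 8.11% in WT (SD, n = 6 each; log2 change of its level 0.45, SE 0.15, adjusted p = 0.83 in edgeR). By library its share was 57.5, 42.2 and 58.2% in KO CT10, 52.6, 57.6 and 53.3% in WT CT10, 61.7, 61.4 and 51.9% in KO CT22 and 36.9, 45.7 and 40.4% in WT CT22, so that KO and WT overlapped at CT10 and did not at CT22. The 7788-base transcript of Kcnc1 held 61.8 ± 2.15% in KO and 60.4 ± 3.61% in WT.

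Kcnip4, a KChIP gene with 5 deposited transcripts, was described for its transcript shares and was picked after its values were seen. Its 2099-base transcript held 93.5, 97.9 and 93.6% of the gene's counts in KO CT10, 98.7, 98.8 and 100% in WT CT10, 69.3, 71.6 and 83.6% in KO CT22 and 90.7, 100 and 91.6% in WT CT22. The 1997-base transcript held 26.4, 28.4 and 2.67% in KO CT22 and was listed at 0 in the other 9 libraries, where the gene held 262 to 414 counts. In the KO CT22 libraries Kcnip4 as a whole held 459, 141 and 262 counts. The shorter transcript did not pass the filter on low counts and was not tested. The log2 change of the 2099-base transcript over both CT labels was -0.23 (SE 0.09, adjusted p = 0.847 in edgeR). Counts of transcripts that share exons are estimates, and the split between them is less certain than the sum.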

How the data were processed

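Hippocampal RNA was sequenced with a stranded poly(A) kit. The authors deposited, per transcript and library, an estimated count and a TPM value, and a series table of log2 ratios, p-values, adjusted p-values and scaled signal for KO over WT. The submitters' processing notes name FastQC, TopHat 1.3.3, RSEM 1.2.5, edgeR 3.0.6 and mm10, without roles. The deposited signal was the counts times 1 factor per library, between 0.761 and 1.827, and was not tested.

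Estimated counts were summed per symbol, rounded and fitted with edgeR 4.0.16's robust quasi-likelihood test (R 4.3.3, limma 3.58.1) on the 4 group means of 12 libraries, leaving 8 residual degrees of freedom. Genes were kept by filterByExpr with a minimum count of 10, scaled by TMM (factors 0.979 to 1.021) and adjusted by Benjamini-Hochberg over 14131 genes at 0.05. The biological coefficient of variation was 12.3%. Intervals are 95% intervals from the fit's standard error. TPM values were summed per gene. In data simulated for KO against WT over both CT labels, with 14032 genes, the test found 77% of genes changed 1.5-fold and 88% of those changed 2-fold. At CT22, with 14017 genes, it found 42% and 76%. The changed genes were drawn at random, spread followed a trend by level, and no choroid or CT differences between libraries were simulated. These rates are therefore not rates for Kcn genes. Over both CT labels the median half-width of the 95% intervals was 0.2764 for Kcn members and 0.2106 for all genes.

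DESeq2 1.42.0, other scalings and filters, a replicate block, left-out libraries and single transcripts were tried as alternatives. Members named were the 15 highest in CPM, the 12 of smallest p over both CT labels and the 6 in each other contrast, 7 genes of choroid plexus, glia, vessels or microglia, and those at 0. 4 of the 92 members are counted in totals and not reported here by name. Members and lists were chosen with earlier results of these data known. Members named for TPM rank, overlap, steadiness, single libraries or transcripts, such as Kcnip2, Kcnmb4, Kcnt1, Kcnf1 and Kcnip4, were chosen after their values were seen.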

Additional observations from a re-analysis of the deposited data

Results flagged for a closer look

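Within the 6 libraries of a genotype, 7 of 72 sets of Kcn levels had 1 library far from the others by Dixon's 95% limit on the gap to its neighbour, which chance passes in about 1 in 20. In KO, Kcna3 was lowest in CT10 replicate 2 at 3.18 CPM, with the next library at 6.75 CPM, and Kcnab2 was lowest in CT22 replicate 3 at 625 CPM, with the next at 799 CPM. Kcnmb1, a BK beta subunit known from smooth muscle, was highest in KO CT10 replicate 1 at 3.06 CPM, with the next at 1.51 CPM. In WT, Kcna5 was highest in CT10 replicate 3 at 4.11 CPM, with the next at 2.30 CPM. WT CT22 replicate 1 was highest for Kcnc2 at 126.5 CPM (next 96.3 CPM) and for Kcnj12 at 8.00 CPM (next 4.21 CPM). WT CT22 replicate 3 was lowest for the A-type channel gene Kcnd3 at 71.9 CPM (next 101 CPM).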

How the results depend on the processing

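The count of Kcn members called was 0 in all 119 alternatives over the 6 contrasts, with a lowest adjusted p of 0.103 (CT22, without WT CT22 replicate 1, in edgeR). With the replicate number as a block it was 0 in each contrast, at a lowest adjusted p of 0.363 in edgeR. Of 18 correlations between same-numbered libraries 4 were over 0.1 (range -0.237 to 0.328), so no pairing by number was evident. Libraries with different numbers were not correlated for comparison. The median log2 change at CT22 was 0.0435 without the 4 choroid-rich libraries, and between 0.0455 (without WT CT22 replicate 3) and 0.1393 when single libraries were left out.

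Of 36 named members, 17 turned sign over both CT labels under some alternative, and none of the 36 was past the threshold; the cause was not tested. Without the choroid-rich libraries the log2 changes were -6e-04 for Kcnc2, -0.0713 for Kcnd3, -0.0256 for Kcng1, 0.0335 for Kcnh3, 0.019 for Kcnip3, -0.0409 for Kcnj10, -0.0101 for Kcnj8, -0.0355 for Kcnk3, -0.0128 for Kcnn3, -0.0575 for Kcns3 and -0.0096 for Kcnv1. Without the 2 KO libraries on the side of the other CT label, an alternative chosen after seeing the data, they were 0.0208 for Kcnh4, 0.0061 for Kcnip3, 0.0678 for Kcnk13 and 0.0288 for Kcnmb1. Kcnh4 had 0.0119 with genotype plus CT label. Kcna5 had -0.0033 with RLE size factors, -0.0037 in DESeq2 and -0.0073 without a filter.

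With single libraries left out, log2 changes ran from -0.1353 to 0.2089 for Kcna5, -0.0028 to 0.1782 for Kcnc4, -0.0254 to 0.1197 for Kcnd3, -0.2465 to 2.2355 for Kcne2 and -0.0446 to 0.0973 for Kcng1. They ran from -0.0491 to 0.0086 for Kcnh3, -0.1606 to 0.151 for Kcnh4, -0.039 to 0.0394 for Kcnip3, -0.0096 to 0.0442 for Kcnj10, -0.0045 to 0.1785 for Kcnj8 and -0.1192 to 0.0365 for Kcnk13. For the rest they ran from -0.0629 to 0.2555 for Kcnk3, -0.3396 to 0.0985 for Kcnmb1, -0.0229 to 0.1333 for Kcns3 and -0.0282 to 0.1316 for Kcnv1.

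Depth limits mainly the 18 untested members and those near the filter, such as Kcng3 and Kcne4. With 3 libraries a group, 46 of 74 intervals at CT10 and 33 at CT22 lay within 1.5-fold, against 9998 and 9306 of all 14131 genes.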
